A study of Mus musculus with 8 samples.

Results

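The 113 heavy chain variable genes of the mouse were examined in lung RNA. They are all the genes of the files whose symbol begins with Ighv and whose gene type is IG_V_gene in GENCODE release M21 of the mouse genome GRCm38, out of 52636 gene identifiers. Of the other genes with an Ighv symbol, 70 are pseudogenes and 2 are of type IG_LV_gene, and these were left out of the 113. The genes lie on the minus strand of chromosome 12, between positions 113578504 and 116000461, and their symbols place them in 16 families. Ighv1 is the largest with 53 genes, followed by Ighv5 with 10 and by Ighv2 and Ighv8 with 9 each. All 8 libraries held counts for 80 of the genes, 28 had counts in some of the libraries, and 5 had none in any (Ighv2-7, Ighv16-1, Ighv1-16, Ighv1-24 and Ighv8-9).

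The libraries came from the whole lungs of wild-type male C57BL/6 mice. The PBS mice received only PBS into the airways, and the PPE/LPS mice, the study's model of COPD, were given porcine pancreatic elastase (PPE) followed by lipopolysaccharide (LPS). PPE damages elastic fibres, and LPS is a bacterial product that provokes inflammation. Each of these was combined with the control diet or with a diet holding 2% TJ-41, a Japanese herbal medicine, from 8 weeks of age, with PPE or PBS at 10 weeks and LPS or PBS from 12 weeks. There were 2 libraries in each of the 4 groups. The sources used here give neither the age at RNA collection nor the number of mice behind a library, so a p-value measures the spread between these libraries, which may be technical in part.

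An antibody heavy chain is assembled in a developing B cell, when 1 V gene is joined to a D and a J segment upstream of the constant genes. The promoter of the joined V gene then drives the heavy chain RNA, which is read in small amounts in resting B cells and in very large amounts in antibody-secreting plasma cells. In bulk RNA the count of a V gene therefore reflects both the number of cells that joined this gene and the RNA each holds, and fewer cells of a type and less RNA per cell cannot be told apart. The V gene and the constant gene of an RNA are counted apart in these files, and their pairing is not analysed here.

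The V exons of the genes that carry the results are given below, so that their likeness can be seen. They were read from GENCODE M21 transcripts (GRCm38, minus strand) without the 11 leader bases at the start of the exon, 5′ to 3′, and capitals mark the bases that differ from, or have no counterpart in, the closest other Ighv gene. Ighv1-9 (ENSMUSG00000094694, chr12:114583569-114583862), Ighv3-6 (ENSMUSG00000076672, chr12:114288152-114288447) and Ighv12-3 (ENSMUSG00000076676, chr12:114366521-114366819) were called in a comparison below and are set against Ighv1-62-1, Ighv3-1 and Ighv3-6.
Ighv1-9: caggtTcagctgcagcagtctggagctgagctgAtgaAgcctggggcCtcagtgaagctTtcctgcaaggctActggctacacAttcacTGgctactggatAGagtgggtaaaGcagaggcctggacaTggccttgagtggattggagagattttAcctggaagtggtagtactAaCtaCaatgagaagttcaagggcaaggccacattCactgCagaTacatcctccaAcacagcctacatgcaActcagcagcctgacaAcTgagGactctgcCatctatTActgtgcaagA
Ighv3-6: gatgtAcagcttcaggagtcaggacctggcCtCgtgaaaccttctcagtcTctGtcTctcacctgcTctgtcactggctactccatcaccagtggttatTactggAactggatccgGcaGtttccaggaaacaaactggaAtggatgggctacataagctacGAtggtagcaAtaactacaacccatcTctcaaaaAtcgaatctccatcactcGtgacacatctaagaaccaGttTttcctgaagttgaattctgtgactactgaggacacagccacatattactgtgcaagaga
Ighv12-3: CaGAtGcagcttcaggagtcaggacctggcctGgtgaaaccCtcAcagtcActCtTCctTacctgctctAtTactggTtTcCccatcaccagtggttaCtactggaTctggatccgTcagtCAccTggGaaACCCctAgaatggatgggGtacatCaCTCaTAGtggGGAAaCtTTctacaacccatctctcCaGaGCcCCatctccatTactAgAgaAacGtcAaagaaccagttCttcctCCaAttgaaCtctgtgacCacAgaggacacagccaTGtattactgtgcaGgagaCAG
The Ighv11 pair is shown because its members differ at 4 bases, with Ighv11-2 (ENSMUSG00000096108) at chr12:114048241-114048536 and Ighv11-1 (ENSMUSG00000094533) at chr12:113981879-113982174.
Ighv11-2: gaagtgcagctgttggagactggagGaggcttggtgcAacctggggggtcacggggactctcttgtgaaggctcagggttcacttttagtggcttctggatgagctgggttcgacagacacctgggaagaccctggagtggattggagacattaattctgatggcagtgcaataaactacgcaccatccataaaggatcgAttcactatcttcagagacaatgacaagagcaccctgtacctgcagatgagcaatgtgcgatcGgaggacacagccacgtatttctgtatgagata
Ighv11-1: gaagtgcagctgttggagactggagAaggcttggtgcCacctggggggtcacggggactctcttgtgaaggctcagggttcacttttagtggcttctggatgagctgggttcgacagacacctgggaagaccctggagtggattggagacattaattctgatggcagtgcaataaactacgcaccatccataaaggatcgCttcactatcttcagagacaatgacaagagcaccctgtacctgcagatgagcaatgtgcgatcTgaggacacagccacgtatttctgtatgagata
Ighv10-1 (ENSMUSG00000095981, chr12:114479005-114479306), which differs from Ighv10-3 at 10 bases, reached the largest share of any library and is named only. Ighv1-72 (ENSMUSG00000096074, chr12:115757984-115758277), set against Ighv1-62-3, is an example of a gene that short reads hardly separate from its relatives.
Ighv1-72: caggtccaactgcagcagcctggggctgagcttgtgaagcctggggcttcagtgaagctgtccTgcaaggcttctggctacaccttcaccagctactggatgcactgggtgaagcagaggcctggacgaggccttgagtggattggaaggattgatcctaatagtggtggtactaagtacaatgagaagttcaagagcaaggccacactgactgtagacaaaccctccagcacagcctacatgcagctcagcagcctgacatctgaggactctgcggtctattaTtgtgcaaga
These sequences set how far a read can be given to 1 gene. Ighv12-3 shares none of its 50-base sequences with another annotated gene, Ighv1-9 shares 0.576% and Ighv3-6 shares 2.91%, whereas Ighv11-2 shares 38.6%, only with Ighv11-1, and Ighv1-72 shares 92.5%. Of the 113 genes, 20 share no 50-base sequence with another gene, 32 share under 10% and 15 share over 50%, and the V exons of Ighv1-62-2 and Ighv1-71 are identical. How reads that map to several genes were counted is not given in the sources used here, so the division of counts between close relatives is uncertain. This touches Ighv1-72, Ighv1-53 (57.6% shared), Ighv2-2 (55.4%), Ighv11-1 (52.3%) and Ighv1-26 (49.0%) among the genes whose values are given below.

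The summed level of the Ighv genes was higher in every library of the PPE/LPS mice than in every library of PBS mice. In CPM (the count relative to the library total after scaling by TMM factors), it was 76.8 and 112 in PBS mice on the control diet and 226 and 238 on the TJ-41 diet. In the PPE/LPS mice it was 837 and 408 on the control diet and 1369 and 437 on the TJ-41 diet. The mean of the PPE/LPS mice was 763 ± 449 CPM (SD, n = 4) against 163 ± 81.0 CPM (SD, n = 4), a 4.67-fold difference of means. It was 6.59-fold on the control diet and 3.89-fold on the TJ-41 diet. The exact two-sided permutation test gave p = 0.0286, the smallest that 4 against 4 libraries allow, and 0.0952 after Benjamini-Hochberg adjustment over 10 tests of usage, which does not pass 0.05. The libraries did not overlap on either diet, and among the 32 genes that share under 10% of their sequences the difference was 90.3 CPM, again without overlap (exact permutation p = 0.0286).

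**Figure D1:**
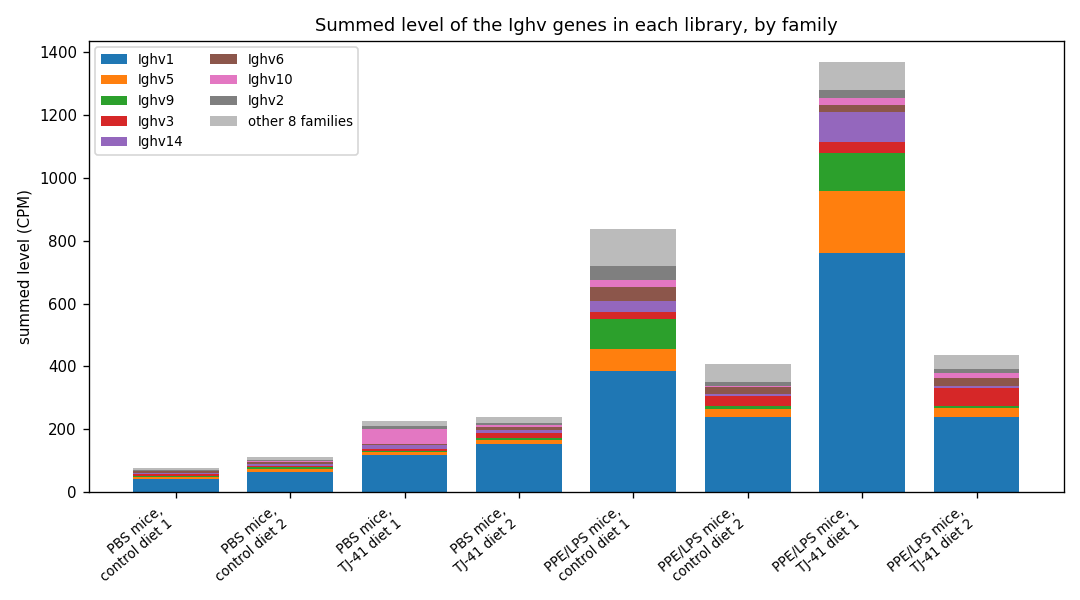
Bars show the summed level of the Ighv genes in each of the 8 libraries in CPM, 2 libraries for each of the 4 groups, and the colours show the 8 families with the highest mean level and the other 8 families together. The 4 bars of PBS mice end between 76.8 and 238 CPM and those of the PPE/LPS mice between 408 and 1369 CPM, with Ighv1 the largest family in each bar.

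The genes were counted on 18767295 to 20888042 reads per library, of which 1470 to 26279 fell on Ighv genes. The libraries stood at different depths for these genes as a result, and a share near 0 is best resolved in the PPE/LPS mice. A count of 0 allows up to 3 counts, which is a share of 0.204% in the shallowest library and 0.0114% in the deepest, and such limits cover counting error only. The 2 libraries of the PPE/LPS mice on the control diet lay farthest apart over all genes, with an SD of 0.675 for the log2 difference between replicates against 0.313 to 0.377 in the other groups.

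Other genes of the B cell lineage were set beside the V genes. The 8 heavy chain constant genes summed to between 556 and 1066 CPM in PBS mice and between 2021 and 5105 CPM in the PPE/LPS mice. For 100 constant region counts there were 13.8 to 24.4 Ighv counts in the libraries of PBS mice and 13.6 to 26.8 in those of the PPE/LPS mice, ranges that overlap. Of the 7 constant genes tested, 5 passed the edgeR test as higher on both diets combined, 4 on the control diet and 2 on the TJ-41 diet. Of all tested genes, 0.341%, 0.102% and 0.0584% did so. None passed as lower, but Ighd had log2 fold changes of -0.55 on the control diet and -0.63 on the TJ-41 diet. The 10 plasma cell markers summed to between 556 and 686 CPM in PBS mice and between 821 and 1454 CPM in the PPE/LPS mice. Of these markers, Jchain, which joins IgM and IgA subunits, rose on both diets combined, with a log2 fold change of 2.64 ± 0.32 (SE, adjusted p = 0.00969 from edgeR with Benjamini-Hochberg adjustment). Most of the gap between the summed levels was Jchain, with 43.3 to 201 CPM in PBS mice and 313 to 894 CPM in the PPE/LPS mice. Xbp1, the most abundant of the other 9, overlapped, with 261 to 301 CPM against 260 to 307 CPM. These 9 did not pass the test, and the median of the list was 0.36 on the log2 scale against -0.0017 for all genes. The 10 B cell markers, which include Cd79a and Ms4a1 of the B cell surface, summed to between 420 and 442 CPM in PBS mice and between 208 and 453 CPM in the PPE/LPS mice, and none passed the test (median log2 fold change -0.49). Outside this lineage, the 10 T cell markers also lay higher without overlap, with 98.9 to 106 CPM in PBS mice and 108 to 153 CPM in the PPE/LPS mice. Of these, 9 had a positive log2 fold change on both diets combined and none passed the test. The part of these cells in the result was not tested.

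The genes of V(D)J joining and antibody diversification had no call by edgeR in the 5 comparisons of models within diets, of models on both diets and of diets within models. Of 20 genes, 18 were tested, and the median log2 fold change of the PPE/LPS mice against PBS mice on both diets was -0.03. Rag2, a subunit of the recombinase that joins V genes in the bone marrow, had no count in any library, and Rag1, its partner, had at most 0.314 CPM.

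At the level of single genes, 85 of the 113 passed the filter on low counts and were tested within the 20546 genes of the table. The filter kept 82 of these with support from at least 2 libraries of the PPE/LPS mice and 58 with support from at least 2 libraries of PBS mice, so that some entered through the group in which they were high. The 28 genes not tested held 403 of the 71332 Ighv counts. With both diets combined, 11 genes were called (a log2 fold change over 1 in size and an adjusted p below 0.05), all of them higher in the PPE/LPS mice, while 0.443% of all tested genes were called and 0.341% were called higher. Of the 11, Ighv11-2, Ighv12-3 and Ighv2-9-1 reached the filter level of 0.526 CPM in fewer than 2 libraries of PBS mice, so these 3 were tested only through the PPE/LPS mice, in which they were high, and their place in this count is no support for it. Without a test, 100 of the 113 genes had a higher mean CPM in the PPE/LPS mice, 8 had a lower one, and the 5 without counts were equal. In 28 of the 85 tested genes (29 of all 113) all 4 libraries of the PPE/LPS mice lay above all 4 of PBS mice. In 0 they lay below, where 3.35% and 3.43% of all tested genes lay above and below.

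Ighv1-9, an Ighv1 gene that shares little sequence with the others, was the gene called in the most alternatives. Its level was 0.679 and 1.04 CPM in PBS mice on the control diet and 2.40 and 1.57 CPM on the TJ-41 diet. It was 19.9 and 30.0 CPM in the PPE/LPS mice on the control diet and 18.0 and 14.2 CPM on the TJ-41 diet. The groups did not overlap on either diet. The log2 fold change was 3.93 ± 0.25 (SE) on both diets together (adjusted p = 2.2e-04), 4.85 ± 0.37 on the control diet (adjusted p = 0.00163) and 3.02 ± 0.34 on the TJ-41 diet (adjusted p = 0.0144, all from edgeR with Benjamini-Hochberg adjustment). On both diets together it stayed called without each of the 8 libraries in turn. On the control diet it was lost without replicate 1 of PBS mice (adjusted p = 0.0989 from edgeR), and on the TJ-41 diet it was kept only without replicate 2 of the PPE/LPS mice.

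Ighv3-6, the most abundant gene of the Ighv3 family, was called in the next most alternatives. It had 2.35 and 2.90 CPM in PBS mice on the control diet, 6.65 and 4.86 CPM on the TJ-41 diet, and 19.4, 26.7, 22.8 and 49.2 CPM in the PPE/LPS mice, the first pair on the control diet. The highest library of PBS mice stood below the lowest of the PPE/LPS mice. The log2 fold change was 2.89 ± 0.27 (SE) on both diets (adjusted p = 0.00274) and 3.13 ± 0.40 on the control diet (adjusted p = 0.0308), and on the TJ-41 diet it was 2.64 ± 0.38 and lay just outside the call (adjusted p = 0.0677, all from edgeR). On both diets the call was lost without replicate 1 of PBS mice on the control diet. Within the control diet the call was lost without replicate 1 and also without replicate 2 of those PBS mice. The log2 fold change there stayed between 2.89 and 3.34 when each library was left out.

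Ighv11-2 and Ighv12-3 were close to absent in PBS mice. In the mouse these V genes are known from B-1 cells, an innate-like B cell population, in which joined VH11 and VH12 chains bind phosphatidylcholine. Ighv11-2 had 0, 3, 18 and 9 counts in the 4 libraries of PBS mice and 467, 94, 854 and 189 counts in those of the PPE/LPS mice, the first pair of each on the control diet. Ighv12-3 had 2, 7, 2 and 9 counts in PBS mice and 192, 38, 137 and 44 in the PPE/LPS mice. For both genes each library of the PPE/LPS mice lay above each library of PBS mice. The log2 fold change on both diets was 6.34 ± 0.84 (SE, adjusted p = 0.0140) for Ighv11-2 and 4.31 ± 0.73 (adjusted p = 0.0469, both from edgeR) for Ighv12-3. Both genes passed the filter only through the PPE/LPS mice, and with 1 library at 0 counts the fitted size for Ighv11-2 depends on the prior count. Both calls were lost without each of the 4 libraries of PBS mice, and that of Ighv12-3 also without replicate 1 of the PPE/LPS mice on the TJ-41 diet, with library size alone, with a mean of at least 1 CPM and with the replicate block (adjusted p up to 0.268 from edgeR). Ighv11-1 had 0 counts in the 4 libraries of PBS mice and 10, 2, 39 and 6 in the PPE/LPS mice, and it was not called.

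The other 7 genes called on both diets together were Ighv5-4, Ighv1-82, Ighv2-9-1, Ighv1-76, Ighv1-80, Ighv1-26 and Ighv6-3. Ighv5-4, near the D segments, had between 0.882 and 1.69 CPM in PBS mice, 48.3 and 10.6 CPM in the PPE/LPS mice on the control diet and 117 and 14.9 CPM on the TJ-41 diet. Ighv1-82, with only Ighv1-84 and Ighv1-85 farther from the D segments, had between 1.67 and 3.33 CPM in PBS mice and 41.7, 8.71, 130 and 28.8 CPM in the PPE/LPS mice. In both genes replicate 1 of the PPE/LPS mice was several times higher than replicate 2 on each diet. The log2 fold changes were 5.05 ± 0.75 (SE, adjusted p = 0.0264) for Ighv5-4 and 4.10 ± 0.63 (adjusted p = 0.0285, both from edgeR) for Ighv1-82. Ighv2-9-1 followed with 4.18, Ighv1-26 with 2.35, Ighv1-80 with 2.27, Ighv1-76 with 2.10 and Ighv6-3 with 1.92 on the same scale. Ighv6-3 lay just inside the call (adjusted p = 0.0484 from edgeR) and Ighv1-64, with a log2 fold change of 1.48, just outside it (adjusted p = 0.0547 from edgeR). Ighv1-26 overlapped between the groups, since PBS mice reached 19.8 CPM and the PPE/LPS mice went down to 17.7 CPM, and the other 6 did not overlap.

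**Figure D2:**
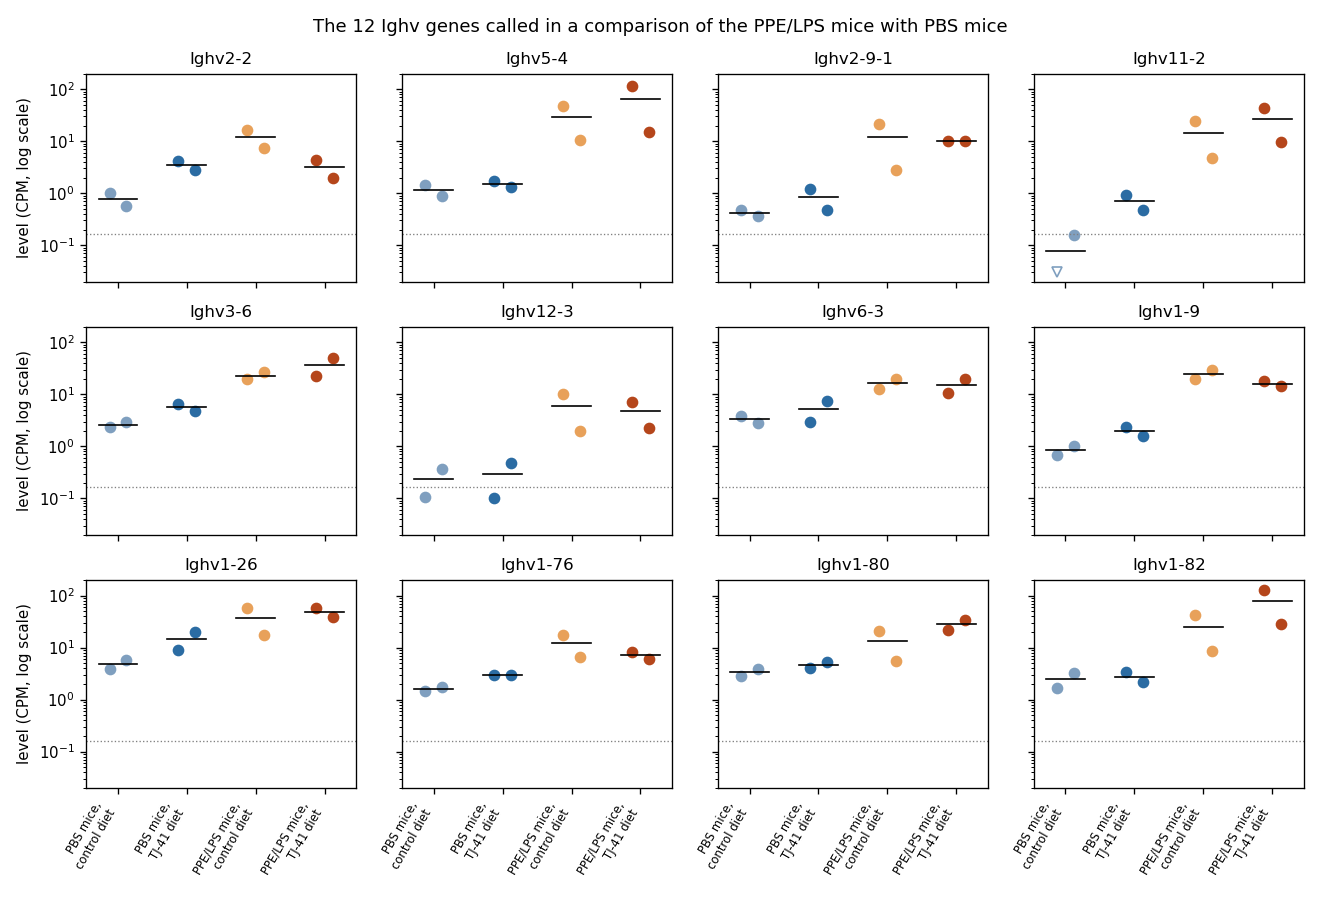
Points show the level of the 12 Ighv genes called in a comparison of the PPE/LPS mice with PBS mice, 1 point per library, in CPM on a log axis, with the mean of each group of 2 libraries as a line. The dotted line is the level of 3 counts (0.162 CPM, the highest such level of the 8 libraries), and the open triangle marks the library with 0 counts of Ighv11-2, which a log axis cannot place. For Ighv1-9 the libraries of PBS mice lie between 0.679 and 2.40 CPM and those of the PPE/LPS mice between 14.2 and 30.0 CPM.

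The number of calls rested on the libraries entered. Without 1 of the 4 libraries of PBS mice it fell from 11 to 1 or 2, the survivors being Ighv1-9 and, in 3 of the 4 fits, Ighv3-6. Without replicate 1 or 2 of the PPE/LPS mice on the control diet it was 47 or 36, and without replicate 1 or 2 of the PPE/LPS mice on the TJ-41 diet it was 6 or 23. In DESeq2 40 genes were called, and in edgeR without the filter 49 were. For these alternative fits, here and below, the share of all genes called is not given. The counts therefore do not show whether the Ighv genes changed more than other genes between fits.

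Within each diet fewer genes were called. On the control diet there were 3 genes, where 0.122% of all tested genes were called and 0.102% were called higher, namely Ighv1-9, Ighv3-6 and Ighv2-2. Ighv2-2, the second gene from the D segments, had 0.993 and 0.571 CPM in PBS mice and 16.6 and 7.48 CPM in the PPE/LPS mice (log2 fold change 3.94 ± 0.56, adjusted p = 0.0496 from edgeR), and its call was lost in 6 of 11 alternatives. These were the fits without either library of those PBS mice, with relative log expression factors, with library size alone, with a mean of at least 1 CPM and with only the groups compared. Without replicate 1 and 2 of those PPE/LPS mice, 22 and 26 Ighv genes were called. Ighv1-64 was next, outside the call (adjusted p = 0.0600 from edgeR). On the TJ-41 diet Ighv1-9 alone was called, where 0.0779% of all tested genes were called and 0.0584% were called higher, and a fit with only those 4 libraries called 26. Without replicate 1 or 2 of those PBS mice there were 0 calls, without replicate 1 of those PPE/LPS mice Ighv3-6 was called in place of Ighv1-9, and without replicate 2 there were 8 calls. Libraries did not overlap, higher in the PPE/LPS mice, in 59 of the 85 tested genes on the control diet (13.6% of all tested genes). On the TJ-41 diet 48 of the 85 did so (28.5%). They were lower without overlap in 0 and 2 of the 85 (14.1% and 27.9% of all tested genes).

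Between the diets, 0 Ighv genes were called in PBS mice, 0 in the PPE/LPS mice and 0 in the difference of the diet effects, where 0%, 0.00487% and 0% of all tested genes were called by edgeR. At an unadjusted p under 0.05 in edgeR there were 13, 23 and 11 Ighv genes in these comparisons, where 1.64%, 4.1% and 3.27% of all tested genes were. DESeq2 called 1, 3 and 4 Ighv genes, and the share of all genes it called is not given here. In PBS mice the summed level was 2.46-fold higher on the TJ-41 diet, with both libraries above both of the control diet. Of the 85 tested genes, 38 were higher and 4 lower without overlap (19.1% of all tested genes in either direction). In the PPE/LPS mice the summed level was 1.45-fold higher, but replicate 1 of the TJ-41 diet decided this. Replicate 2 (437 CPM) was close to the lower of the libraries on the control diet (837 and 408 CPM). Here 19 of the 85 tested genes were higher and 6 lower without overlap (14.1% and 14.8% of all tested genes). Over all 8 libraries the summed level was 209 CPM higher on the TJ-41 diet (exact permutation p = 0.571). Without replicate 1 of the PPE/LPS mice on the TJ-41 diet the difference was -58.1 CPM.

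Usage was then described by the share of each gene in the Ighv counts of its library. The counted length of the genes varied from 294 to 523 bases, and dividing by it left 9 of the 10 genes with the largest mean share among the first 10 and the same leading gene in all 8 libraries. Ighv1-26 had the largest mean share, 5.84%, and was the gene with over 5% in the most libraries (5 of 8), between 3.89% and 8.82%. The next were Ighv10-1 (4.11%), Ighv3-6 (4.05%), Ighv1-72 (3.85%), Ighv1-82 (3.83%), Ighv1-80 (3.07%), Ighv5-4 (3.03%), Ighv1-22 (2.99%), Ighv6-3 (2.94%) and Ighv1-53 (2.88%). Neighbours in this order were closer to each other than the spread of their shares over the libraries.

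Ighv1-72 was the only gene that led more than 1 library. In PBS mice on the control diet it was Ighv9-3 with 5.44% (95% Wilson interval 4.39 to 6.72) in replicate 1 and Ighv1-26 with 5.23% (4.37 to 6.25) in replicate 2. On the TJ-41 diet it was Ighv10-1 with 20.8% (19.6 to 22.0) and Ighv1-72 with 9.71% (8.87 to 10.6). In the PPE/LPS mice on the control diet it was Ighv9-4 with 9.11% (8.67 to 9.56) and Ighv1-72 with 8.76% (8.16 to 9.40), and on the TJ-41 diet Ighv1-82 with 9.48% (9.13 to 9.84) and Ighv3-6 with 11.3% (10.6 to 11.96). Ighv1-72 is known as the V gene of the C57BL/6 response to the hapten NP. These intervals cover counting error only.

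Several genes were high in 1 library and low in its replicate. Ighv10-1 had 919 counts in replicate 1 of PBS mice on the TJ-41 diet and 44 in replicate 2, and at most 356 in any other library. Ighv1-63 had 275 counts in the same library, 6.21% of its Ighv counts, and at most 23 in any other. Ighv9-4 had 1463 counts in replicate 1 of the PPE/LPS mice on the control diet, 28 in its replicate, at most 40 on the TJ-41 diet and at most 6 in PBS mice. Shares above 5% occurred in 22 pairs of a gene and a library, and the 14 genes concerned passed this mark in exactly 1 library (9 genes), in 2 or 3 (4 genes) or in more (Ighv1-26).

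**Figure D3:**
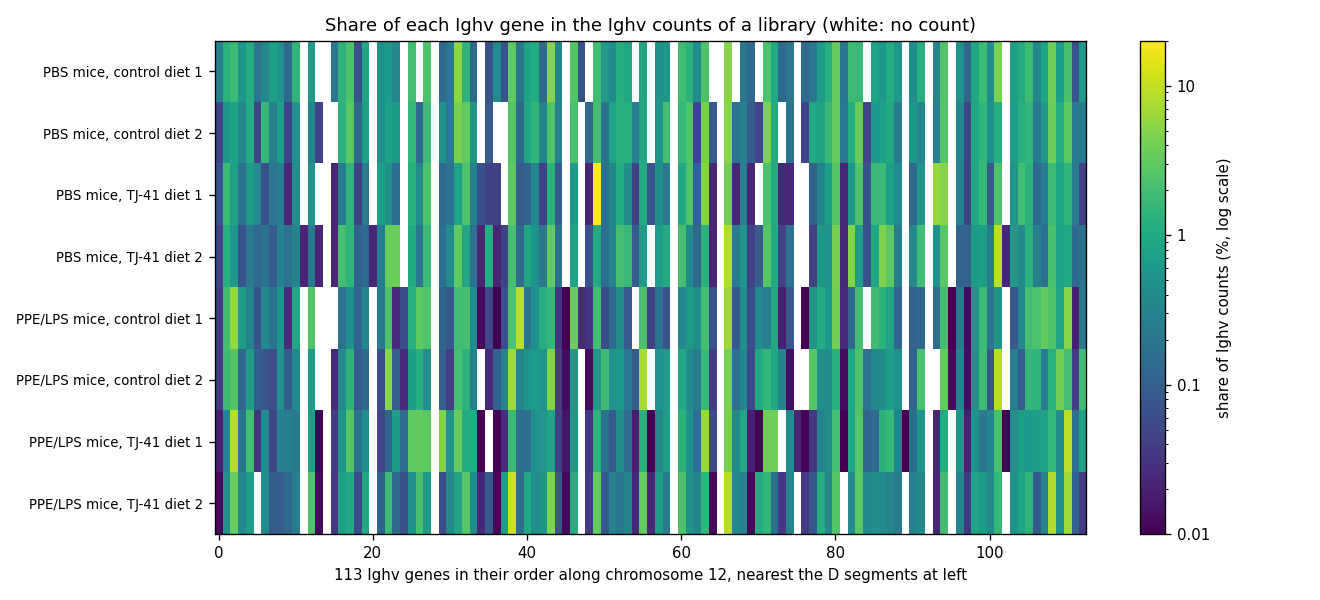
Colours show the share of each of the 113 Ighv genes (columns, in their order along the chromosome from the D segments) in the Ighv counts of each of the 8 libraries (rows), in percent on a log scale from 0.01 to 20, with values beyond these limits drawn at them and white for no count. The brightest cell is Ighv10-1 in replicate 1 of PBS mice on the TJ-41 diet (20.8%), and bright cells mostly stand in 1 row of a column.

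Replicates resembled each other no more than other pairs of libraries did, with 1 exception. The overlap of usage, the sum over genes of the smaller of the shares in a pair of libraries, was 80.1% between the replicates of PBS mice on the control diet and 53.0%, 54.9% and 56.0% between the replicates of the other groups. Pairs of libraries from different groups overlapped by 50.8% to 67.6%. Among the 55 genes with a mean share of at least 0.5%, the median fold between replicate shares was 1.32 in PBS mice on the control diet, 2.01 on the TJ-41 diet, and 2.48 in both groups of the PPE/LPS mice. More than a 3-fold difference between replicates was found in 7 of these genes in PBS mice on the control diet, against 18, 22 and 20 in the other groups. The replicates of PBS mice on the control diet also had the fewest Ighv counts, 1470 and 2162.

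The effective number of genes (the inverse Simpson index, which is the number of equally used genes that would give the same evenness) was 42.8 and 43.3 in PBS mice on the control diet. It was 16.02 and 28.7 in PBS mice on the TJ-41 diet, 30.1 and 28.9 in the PPE/LPS mice on the control diet, and 27.3 and 23.1 on the TJ-41 diet. All 4 libraries of the TJ-41 diet lay below all 4 of the control diet, by 12.5 in the mean (exact permutation p = 0.0286, adjusted p = 0.0952). The largest share of 1 gene was likewise higher on the TJ-41 diet, 12.8% ± 5.37 against 7.13% ± 2.08 (SD, n = 4 each, exact permutation p = 0.0286, adjusted p = 0.0952). Neither passed after adjustment, and the test pooled both mouse models. For the effective number the nearest libraries were 28.7 (PBS mice, TJ-41 diet) and 28.9 (PPE/LPS mice, control diet). The lack of overlap thus rests on a near tie between libraries of different models. The 16 most used genes made up 50% of the Ighv counts in both libraries of PBS mice on the control diet, and 9 to 12 genes did in the others. Among the 32 genes that share under 10% of their sequences the effective number differed by -1.18 (exact permutation p = 0.429). Over all the Ighv genes, the difference between the diets was -20.7 in PBS mice and -4.33 in the PPE/LPS mice.

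**Figure D4:**
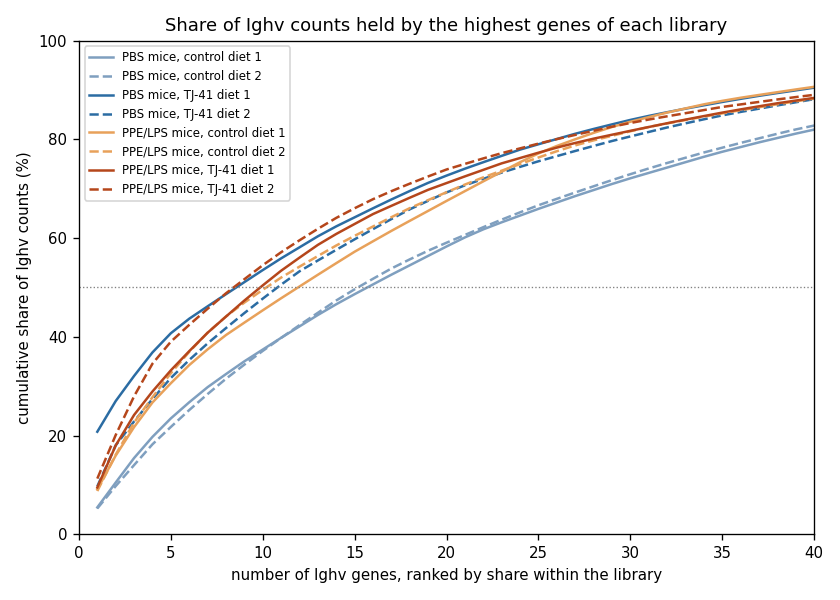
Lines show, for each of the 8 libraries, the cumulative share of Ighv counts (percent) against the number of genes, ranked by share within the library, up to 40 genes, and the dotted line marks 50%. The 2 lines of PBS mice on the control diet run lowest and cross it at 16 genes, and the other 6 cross it at 9 to 12.

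Between the PPE/LPS mice and PBS mice these measures of evenness overlapped. The effective number was 27.3 ± 3.07 against 32.7 ± 13.03 (SD, n = 4 each, exact permutation p = 0.400) and the largest share 9.65% ± 1.12 against 10.3% ± 7.29 (exact permutation p = 0.914). Replicate 1 of PBS mice on the TJ-41 diet set the sign of the latter, since without it the PPE/LPS mice were 2.86 percentage points higher. Within the control diet the effective number was 13.6 genes lower in the PPE/LPS mice, and within the TJ-41 diet 2.79 higher, as values without a test.

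By family, Ighv1 held the largest part of the counts in all 8 libraries, from 46.1% to 63.8%, with means of 53.7% in the PPE/LPS mice and 56.6% in PBS mice (exact permutation p = 0.514). Ighv2 and Ighv5, the families nearest the D segments, together held 12.4% ± 3.48 against 9.42% ± 2.90 (SD, n = 4 each, exact permutation p = 0.257), a difference that turned to -4.41 percentage points among the 32 genes with little shared sequence. By diet, Ighv1 held 56.6% on the TJ-41 diet and 53.7% on the control diet (exact permutation p = 0.486), and Ighv2 with Ighv5 held 10.1% and 11.7% (exact permutation p = 0.571). Ighv3 ranged from 2.52% to 13.1%, Ighv9 from 1.22% to 11.2%, Ighv10 from 1.15% to 21.9% and Ighv14 from 1.51% to 7.17%. These families and Ighv2, Ighv4, Ighv5, Ighv6, Ighv7, Ighv8, Ighv13 and Ighv15 overlapped between the groups, and the 1 gene of Ighv16 had no count.

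The shares of Ighv11 and Ighv12 were the exceptions. Ighv11 made up 0%, 0.139%, 0.407% and 0.204% of the Ighv counts in PBS mice and 2.97%, 1.20%, 3.40% and 2.28% in the PPE/LPS mice, with means of 0.187% ± 0.169 and 2.46% ± 0.957 (SD, n = 4 each). The lowest interval of the PPE/LPS mice (0.987 to 1.47%, 95% Wilson) lay above the highest of PBS mice (0.257 to 0.642%). Ighv12 made up 0.136%, 0.324%, 0.0452% and 0.204% in PBS mice and 1.20%, 0.477%, 0.521% and 0.515% in the PPE/LPS mice, where the intervals of neighbouring libraries overlapped. The shares of 7 of the 113 genes were higher without overlap, namely Ighv5-4, Ighv1-9, Ighv2-9-1, Ighv11-2, Ighv12-3, Ighv11-1 and Ighv6-5, the last on at most 4 counts a library. Ighv11-1 and Ighv6-5 had 0 counts in all libraries of PBS mice, where a count of 0 allows a share of 0.0678% to 0.204%. Their shares in the PPE/LPS mice were all under 0.204%, so their lack of overlap is not resolved at these depths. In 8 genes the share was lower without overlap, among them Ighv10-3 (1.42% in PBS mice and 0.408% in the PPE/LPS mice), Ighv1-7 (1.09% and 0.198%) and Ighv1-63. A share of Ighv counts exists for these genes only, so there is no rate over all genes to set beside these counts. These families and genes were singled out once their values were known, and their shares were not tested.

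**Figure D5:**
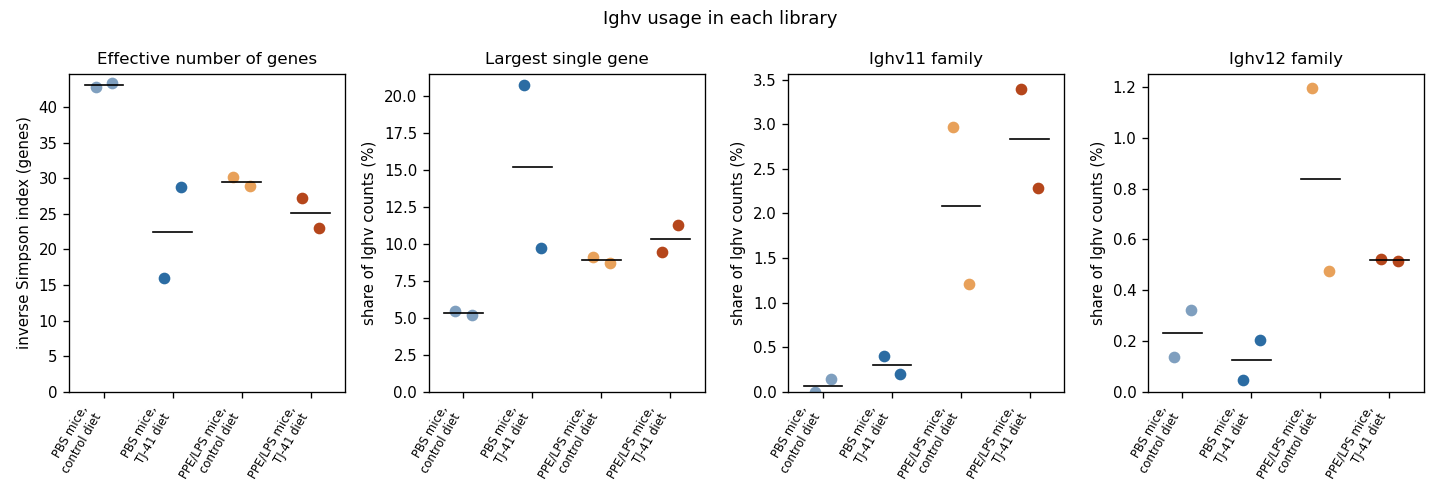
Points show, for each library of the 4 groups, the effective number of Ighv genes, the largest share of 1 gene, and the shares of the Ighv11 and Ighv12 families in the Ighv counts (percent), with the mean of each group as a line and each axis starting at 0. The effective number is highest in PBS mice on the control diet (42.8 and 43.3), and both family shares are higher in the 4 libraries of the PPE/LPS mice than in the 4 of PBS mice.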

How the data were processed

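Lung RNA of 8 libraries was measured by RNA sequencing. The authors deposited raw counts of reads for each Ensembl gene as whole numbers. The submitters' processing notes name HISAT2, edgeR and mm10, and the study's methods name CLC Genomics Workbench. The counting program, annotation, strand setting and treatment of reads mapping to several genes are not given in the sources used here. Of 52636 identifiers, 52489 were found in GENCODE M21. Groups and replicate numbers came from the deposited labels, in which TJ41 and TJ4 were both read as TJ-41.

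Counts were analysed with edgeR 4.0.16 and limma 3.58.1 in R 4.3.3. The filter was filterByExpr (minimum count 10, minimum total 15), counts were scaled by TMM (factors 0.935 to 1.02) and fitted by the quasi-likelihood test to group means, with Benjamini-Hochberg adjustment over 20546 genes, 4 residual degrees of freedom and a common biological coefficient of variation of 0.208. Standard errors (SE) are the log2 fold change divided by the root of its F value. Genes were called at an adjusted p below 0.05 with a log2 fold change over 1 in size. CPM used TMM-scaled library totals. The 5 measures of usage were compared between 4 and 4 libraries by exact two-sided permutation tests (SciPy 1.17.1). The V exons were aligned with Biopython 1.88.

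The genes named were those called in any comparison, those next to the threshold, the 10 with the largest mean share and the leading gene of each library, and others were picked after their values were seen. The Ighv genes and the lists were chosen with earlier results of these data known. Lists of markers were described without list tests. Besides those given with the results, lung epithelium and endothelium markers summed to 38140 to 47422 CPM in PBS mice and 33098 to 68457 CPM in the PPE/LPS mice. In the same order, red blood cell markers summed to 873 to 2732 and 988 to 3751 CPM, and heart muscle markers to 310 to 463 and 217 to 587 CPM. Thymus markers summed to 16.7 to 19.5 and 14.9 to 22.5 CPM. None of the genes of these lists was called on both diets.

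Replicates differed by 12.0 to 88.6 times the variance of counting alone, so that no library copied another. Alternatives were relative log expression factors, library size alone, DESeq2 1.42.0, other filters, a replicate block, the groups compared alone, leaving out each library, genes with little shared sequence, added pseudogenes and another Simpson estimator. On simulated data of 20223 genes, 200 genes with mean counts above 50 were changed in the PPE/LPS mice on the control diet. In that comparison edgeR recovered 98 of 100 changed 4-fold and 100 of 100 changed 16-fold, and called 5 unchanged genes. It called 0 in a comparison without change. The simulated spread was the trend over all genes. Many Ighv genes had fewer counts in PBS mice, and many differed more than 3-fold between replicates, so these recovery rates do not carry over to them. Promoters of the Ighv genes and the recombination signals were not analysed here.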

Additional observations from a re-analysis of the deposited data

Results flagged for a closer look

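Ighv1-9 and Ighv2-2 are listed because the TJ-41 diet went with higher levels in both libraries of PBS mice and with lower levels in both libraries of the PPE/LPS mice. For Ighv1-9 the mean was 1.13 CPM higher on the TJ-41 diet in PBS mice and differed by -8.82 CPM in the PPE/LPS mice. In edgeR the difference of these diet effects was -1.83 ± 0.48 on the log2 scale and did not pass (adjusted p = 0.999). For Ighv2-2 the mean was 2.67 CPM higher in PBS mice, where it went from 0.993 and 0.571 CPM to 4.14 and 2.75 CPM, and differed by -8.89 CPM in the PPE/LPS mice, where it went from 16.6 and 7.48 CPM to 4.32 and 1.99 CPM. The difference of the diet effects was -4.06 ± 0.75 on the log2 scale (adjusted p = 0.931 from edgeR).

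The 70 Ighv pseudogenes, which no comparison uses, are listed because their summed level was higher in the PPE/LPS mice, with a mean of 3.48 CPM against 1.08 CPM in PBS mice. The libraries overlapped, with 8, 14, 25 and 35 counts in PBS mice and 87, 47, 122 and 12 in the PPE/LPS mice. With 2 libraries in a group no library could be tested as an outlier.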

How the results depend on the processing

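Where a gene was called, its direction held under every alternative, and the number of calls did not. On the control diet, on the TJ-41 diet and on both diets, where 3, 1 and 11 Ighv genes were called, edgeR without the filter called 22, 16 and 49 and DESeq2 called 22, 14 and 40. Of these tools, DESeq2 called 1, 3 and 4 genes for the TJ-41 diet (PBS mice, the PPE/LPS mice, and the difference of the diet effects), and edgeR without the filter called 0, 1 and 1, where none had been called. On both diets a mean of at least 1 CPM left 7, and on the TJ-41 diet library size alone gave 2 and the groups compared alone 26. Leaving out each library in turn gave 0 to 26 calls on the control diet, 0 to 8 on the TJ-41 diet, 1 to 47 on both diets, 0 to 0 and 0 to 13 for the TJ-41 diet in each model in the same order, and 0 to 2 for the difference of the diet effects, in fits that assume a lone library to vary like the other groups. The replicate numbers did not pair libraries (correlations from -0.248 to 0.140), and with a replicate block 4, 3 and 10 genes were called in the comparisons of the PPE/LPS mice. The share of all genes called is not given beside these counts, so they do not show a change particular to the Ighv genes. The cause of these changes was not tested.

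For usage, the genes with under 10% shared sequence turned the difference of the PPE/LPS mice from PBS mice to 10.8 percentage points for the largest share and to -4.41 for Ighv2 plus Ighv5, and left a TJ-41 difference of -1.18 in effective number and 5.55 in the largest share. Leaving out each library gave 397 to 718 CPM for the summed level by model and -58.1 to 369 CPM by diet, -11.0 to -1.86 genes by model and -15.0 to -9.93 by diet for the effective number, -2.32 to 2.86 and 3.02 to 6.78 percentage points for the largest share, -4.54 to -0.40 and 0.44 to 4.58 for Ighv1, and 1.63 to 4.18 and -3.60 to -0.47 for Ighv2 plus Ighv5. Within the control diet and the TJ-41 diet alone, the PPE/LPS mice differed by -13.6 and 2.79 in effective number, 3.60 and -4.86 in the largest share and -0.19 and 6.13 in Ighv2 plus Ighv5. Within PBS mice and the PPE/LPS mice alone, the TJ-41 diet differed by -20.7 and -4.33, 9.90 and 1.45, and -4.67 and 1.64. Among genes not called in the comparison, the TJ-41 diet comparison gave log2 fold changes over the leave-outs from -0.12 to 3.87 for Ighv1-22, from -1.004 to 1.75 for Ighv1-72 (-0.30 in another), from -1.55 to 2.77 for Ighv10-1, from -0.79 to 0.33 for Ighv2-2 (0.20 in another) and from -0.27 to 3.71 for Ighv9-3, and on both diets from -0.18 to 2.54 for Ighv10-1, each range holding a change of sign. Ighv10-1 was at 0.19 with the replicate block on the TJ-41 diet.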
